A study of Mus musculus with 9 samples.

Results

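Mice eating a high-fat diet with L-carnitine in their drinking water were compared with mice on the same diet alone, by RNA sequencing of muscle. The comparison uses 6 of the 9 libraries of the study, 3 on each side, and every one of the 19335 counted features. All mice were C57BL/6J of wild-type genotype. They entered the study at 9 weeks of age and were acclimatised for 2 weeks before 8 weeks of feeding, and tissue was taken after a 6 h fast. The high-fat diet (D12492) supplied 60% of its energy as fat, and the carnitine group also received 100 mg/kg/day of L-carnitine. The 3 control libraries came from mice fed a diet (D12450J) with 10% of its energy from fat. Both groups compared here therefore share the fat-rich diet, and a difference between them is a difference that goes with carnitine on that diet. The labels name neither the muscle nor the sex of the mice, and no label ties a library to a mouse of its own. P-values therefore measure the spread between these libraries.

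L-carnitine carries long-chain fatty acids across the inner mitochondrial membrane. Carnitine palmitoyltransferases attach the acyl group and remove it again, a translocase exchanges acylcarnitine for free carnitine, and carnitine acetyltransferase buffers acetyl groups against acetyl-CoA. Most of the body's carnitine is held in skeletal muscle, where fatty acids are a main fuel during fasting.

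The largest of the called increases with carnitine lay on the strand opposite Cish, a STAT5-induced inhibitor of cytokine signalling, and another lay opposite Dbp, an output transcription factor of the circadian clock. The promoters of both genes are shown because the called rows turn on these loci. They are the RefSeq sequences from 250 bases before to 50 bases after the gene start (build GRCm38.p6, plus strand), Cish at chr9:107296409-107296708 and Dbp at chr7:45704997-45705296. Capitals mark the motif TTCNNNGAA, the pattern that STAT5 is known to bind, which reads the same on both strands.
Cish: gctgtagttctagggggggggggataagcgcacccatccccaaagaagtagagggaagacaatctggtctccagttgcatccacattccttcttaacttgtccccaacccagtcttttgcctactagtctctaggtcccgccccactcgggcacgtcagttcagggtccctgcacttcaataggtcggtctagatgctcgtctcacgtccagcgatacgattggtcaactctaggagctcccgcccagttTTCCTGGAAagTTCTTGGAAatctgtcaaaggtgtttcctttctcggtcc
Dbp: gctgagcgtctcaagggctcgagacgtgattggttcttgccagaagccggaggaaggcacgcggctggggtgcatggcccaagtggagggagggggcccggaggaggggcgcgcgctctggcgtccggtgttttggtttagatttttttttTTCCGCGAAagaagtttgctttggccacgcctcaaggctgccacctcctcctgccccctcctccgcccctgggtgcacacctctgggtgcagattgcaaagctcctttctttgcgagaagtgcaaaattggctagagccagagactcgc
Counted from 1 at the first base of the gene, the Cish window held the motif at position 1 (TTCCTGGAA) and at position 12 (TTCTTGGAA). The Dbp window held it once, at position −99 (TTCCGCGAA). The motif occurred in 2726 of the 32851 promoters of the table (8.3%), and 150 of them (0.457%) held it at least 2 times. A match describes the letters and is no evidence that a factor was bound.

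Counts per library were low, between 2315985 and 3773649 over the 9 libraries, so that 3 counts correspond to 0.795 to 1.295 CPM (counts scaled to library size). The library kit keeps strand information, and whether counting used it is not given in the sources here. Features whose exons overlap those of a gene on the other strand took 81.8% to 88.8% of the counts of each library. In high-fat diet 1 the rows of 19 skeletal muscle marker genes held 68458 CPM, but 470469 CPM when summed with their opposite strands. Each feature is therefore called a row below, and the gene opposite it is named where exon sequence is shared. Which of the genes at a locus the counts of a row come from was not tested. Features with no opposite gene held 11.8%, 13.1% and 14.2% of the counts in high-fat diet 1, 2 and 3. They held 13.1% in carnitine 1, against 8.65% (95% Wilson interval 8.61 to 8.68) in carnitine 2 and 9.32% (9.28 to 9.35) in carnitine 3. Carnitine 1 thus stood apart from the other carnitine libraries. Values of a fit without it are given beside named rows that it calls. This fit was chosen after the libraries were seen. It leaves out the carnitine library nearest the high-fat diet in this share, which favours calls. Its p-values are therefore given as description and add no support. The control libraries spanned 9.54% to 14.4%.

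With carnitine, 3 rows rose and 1 fell among the 7523 tested (0.0532% called, 0.0399% higher and 0.0133% lower; edgeR's quasi-likelihood test with Benjamini-Hochberg adjustment, adjusted p below 0.05). At an unadjusted p below 0.05 there were 409 higher (5.44%) and 495 lower (6.58%) rows. The called rises were Gm17041 and Gm17040, both opposite Cish, and Sphk2, opposite Dbp and Rpl18. The called fall was Flnc, which encodes filamin C, a protein that ties actin filaments together at the Z-disc.

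Gm17041 is a long non-coding RNA on the minus strand of chromosome 9 (107177579 to 107179037) that shares 479 bp of exon with Cish (107173225 to 107179983, plus strand). Gene positions here and below are as deposited, in a build the file does not name, and differ from those of the promoters above. Its normalised level in the high-fat diet libraries was 27.3, 60.6 and 33.4 CPM, while carnitine 1, 2 and 3 reached 142, 537 and 394 CPM. The groups did not overlap, and the lowest carnitine library stood above every other library of the study, since the controls were at 12.4, 14.2 and 15.5 CPM. The log2 fold change was 3.13 (SE 0.41, edgeR adjusted p = 0.00588), and all 9 fits with a library left out called it. Without carnitine 1 it was 3.52 (adjusted p = 2.02e-11 by edgeR).

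Gm17040, a transcribed pseudogene on the same strand (107169634 to 107174391), shares 261 bp of exon with Cish. It was at 7.45, 13.2 and 5.57 CPM on the high-fat diet and at 24.6, 132 and 65.9 CPM with carnitine, again without overlap. The log2 fold change was 3.04 (SE 0.49, edgeR adjusted p = 0.00898), and 7 of 9 fits with a library left out called it. The adjusted p was 0.158 without high-fat diet 1 and 0.199 without carnitine 2. The row of Cish itself held 0, 8 and 4 counts in the high-fat diet group, against 6, 24 and 10 with carnitine and 0, 0 and 9 in control, too few to test. Carnitine 2 had the most counts on all 3 rows of the locus and carnitine 1 the fewest of its group. Summed over both strands, the locus was at 34.9, 75.5 and 40.4 CPM against 168, 679 and 459 CPM, a log2 fold change of 3.10 that missed the threshold (SE 0.46, edgeR adjusted p = 0.0529). As in any bulk tissue, less RNA per cell and fewer cells of one kind cannot be told apart in these values.

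Sphk2, a kinase that makes sphingosine 1-phosphate (chromosome 7, 45358891 to 45367426, minus strand), shares 539 bp of exon with Dbp and 373 bp with the ribosomal protein gene Rpl18. It was at 42.2, 45.3 and 42.0 CPM on the high-fat diet and at 105, 245 and 102 CPM with carnitine, while control lay between them at 85.4, 71.5 and 69.4 CPM. None of the 3 groups overlapped. The log2 fold change of carnitine against the high-fat diet was 1.80 (SE 0.30, edgeR adjusted p = 0.00846). The adjusted p was 0.126 without high-fat diet 1 and 0.384 without carnitine 2, where the log2 fold change was 1.24. The rows of the opposite genes did not pass: Dbp was at a log2 fold change of 0.21 (SE 0.45) and Rpl18 at 0.09 (SE 0.28). Summed over both strands the locus was at 1.09 (adjusted p = 0.0800 by edgeR).

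Flnc (chromosome 6, 29433255 to 29461882, plus strand) has no opposite gene. It was at 488, 372 and 295 CPM on the high-fat diet and at 177, 135 and 159 CPM with carnitine, against 243, 213 and 302 CPM in control. Every carnitine library was below every library of the other groups, and control overlapped the high-fat diet. The log2 fold change was −1.29 (SE 0.24, edgeR adjusted p = 0.0256). The strand-summed fit, which called 1 of 5931 loci (0.0169%), called this gene alone (−1.30, adjusted p = 0.0329 by edgeR). As Flnc has no opposite gene, its sum is its own row and adds no further check. With a library left out, 4 of 9 fits called Flnc. The adjusted p was 0.293 without high-fat diet 1, 0.0884 without high-fat diet 2, 0.431 without carnitine 2, 0.144 without carnitine 3 and 0.0542 without control 3. With each class of features scaled by itself the value was −0.96 (adjusted p = 0.139), and Gm17041, Gm17040 and Sphk2 then each had an adjusted p of 0.0616. All 4 rows passed with DESeq2 and limma-voom. In edgeR, none passed in a fit of only the 6 libraries (adjusted p from 0.0783 for Gm17041 to 0.102) or with the share of counts on features with no opposite gene as a covariate (0.389 to 0.57), where log2 fold changes were 2.39 for Gm17041, 2.06 for Gm17040, 1.58 for Sphk2 and −1.24 for Flnc.

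**Figure D1:**
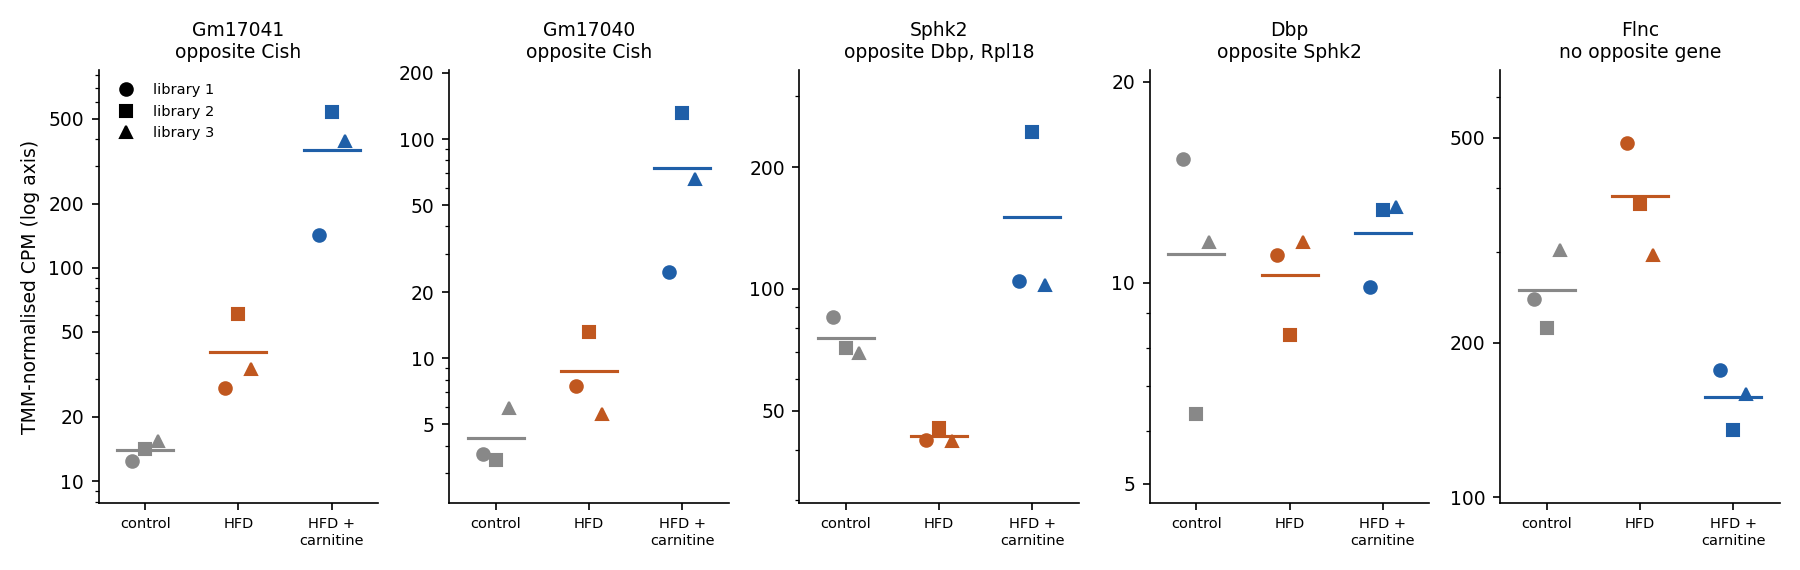
Normalised level (TMM-normalised CPM, log axis) of the 4 called rows and of Dbp in each library; grey is control, orange the high-fat diet (HFD) and blue the high-fat diet with carnitine, symbols give the library number and bars the group means. Gm17041, Gm17040 and Sphk2 lie higher in every carnitine library than in any high-fat diet library and Flnc lower, whereas the Dbp row at 9.86 to 13.0 CPM with carnitine overlaps the other groups.

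A fit without carnitine 1 called 84 rows, 28 higher (0.346%) and 56 lower (0.692%), which is 1.04% of 8087, and 74 of 6358 strand-summed loci (1.16%). Since that library was left out after its values were seen, these calls are no support beyond the fit of all libraries. All 4 called rows were among them, with log2 fold changes of 3.52 for Gm17041, 3.47 for Gm17040, 2.02 for Sphk2 and −1.38 for Flnc, and in 49 of the 84 carnitine 1 also lay outside the high-fat diet range on the same side. The row with the smallest p there was Gm27177, opposite Entpd4b and the collagen cross-linking enzyme gene Loxl2. It was at 19.5, 17.9 and 22.3 CPM on the high-fat diet and at 26.2, 284 and 317 CPM in carnitine 1, 2 and 3. Carnitine 1 was thus close to the high-fat diet and the other carnitine libraries far above it. Its log2 fold change was 3.93 without carnitine 1 (adjusted p = 1.73e-13 by edgeR) and 3.39 with it (adjusted p = 0.232). Pdk4, the kinase that inhibits pyruvate dehydrogenase, was at 504, 534 and 546 CPM on the high-fat diet and at 426, 185 and 262 CPM with carnitine. Its log2 fold change was −0.86 with all libraries (adjusted p = 0.226) and −1.23 without carnitine 1 (adjusted p = 0.0108 by edgeR).

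The next higher rows did not pass but did not overlap between the groups. Zfp142, a zinc finger gene that shares 2101 bp of exon with the phospholipase C gene Plcd4, was at 57.1, 40.4 and 50.5 CPM on the high-fat diet and at 76.6, 208 and 113 CPM with carnitine. Its log2 fold change was 1.43 (SE 0.30, edgeR adjusted p = 0.0655), or 1.71 without carnitine 1 (adjusted p = 0.000127 by edgeR), and the Plcd4 row was at 0.37 (SE 0.28). The sodium-proton exchanger gene Slc9a4, opposite Gm37435 and Gm35801, was at 4.26, 4.18 and 4.09 CPM against 19.3, 19.7 and 15.4 CPM. All 3 carnitine libraries were alike, at a log2 fold change of 2.11 (SE 0.47, edgeR adjusted p = 0.0856), or 2.07 without carnitine 1 (0.0452). Gm20743, opposite the chemokine gene Xcl1, held 3, 2 and 3 counts on the high-fat diet and 11, 31 and 25 counts with carnitine, and it passed without carnitine 1 (adjusted p = 0.00811 by edgeR). The glutathione synthetase gene Gss, opposite Acss2, was at 105, 130 and 124 CPM against 239, 217 and 202 CPM (log2 fold change 0.87, SE 0.24, edgeR adjusted p = 0.199). Rows with no shared exon also had higher values, led by the dendritic cell receptor gene Clec9a (1.76), the Hippo pathway transcription factor Tead1 (1.27), the Wnt receptor gene Fzd4 (2.03), Ttpal (2.43), the endoplasmic reticulum oxidase gene Ero1b (1.31) and Rnf32 (1.29). Their adjusted p-values by edgeR were 0.199 for Clec9a and 0.226 to 0.233 for the others.

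Among rows that were lower without passing, Chchd2, which encodes a protein of the mitochondrial intermembrane space, came closest. It has no opposite gene and was at 70.6, 89.8 and 73.5 CPM on the high-fat diet and at 35.3, 24.0 and 25.5 CPM with carnitine. The log2 fold change was −1.46 (SE 0.29, edgeR adjusted p = 0.0519), or −1.65 without carnitine 1 (adjusted p = 0.00519 by edgeR). The autophagy receptor-like gene Calcoco1 was at 58.2, 55.9 and 70.2 CPM against 29.6, 25.7 and 18.8 CPM (−1.31), and the LIM protein gene Lmcd1 at 72.0, 69.4 and 32.3 CPM against 27.3, 13.3 and 16.8 CPM (−1.59). Eif4ebp1, which encodes a repressor of cap-dependent translation that mTORC1 inactivates, was at 40.1, 29.2 and 49.0 CPM against 10.997, 16.7 and 11.5 CPM (−1.59). Each of these 3 had an adjusted p of 0.0856 by edgeR and no overlap between the groups. The same adjusted p applied to the unconventional myosin gene Myo18b (−1.11, opposite 1700095B10Rik) and to Gm45822 (−1.55, opposite Tom1 and Hmgxb4). Gys1, the muscle glycogen synthase gene, opposite Ruvbl2, was at 86.9, 75.0 and 86.9 CPM against 45.1, 20.1 and 40.9 CPM (−1.23, adjusted p = 0.145), and the lipid droplet gene Plin4, opposite Hdgfl2, at −1.02 (adjusted p = 0.187). Gapdh, opposite Iffo1, was at −0.98 (adjusted p = 0.180), and the Golgi matrix gene Golga2, opposite Swi5, at −1.33 (adjusted p = 0.199). Without carnitine 1 several of these rows passed, all lower. Lmcd1 was then at −1.94 (edgeR adjusted p = 0.0057), Calcoco1 at −1.45 (0.0168), Gys1 at −1.44 (0.0167), Plin4 at −1.34 (0.00811), Myo18b at −1.17 (0.0226) and Gm45822 at −1.42 (0.049).

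The direction of a row went with its class. Of the tested rows, the 4058 that share exon sequence across strands centred on a log2 fold change of 0.18, with 63.5% above 0. The 2700 with no opposite gene centred on −0.32, with 30.2% above 0, and the median of all tested rows was −0.01. Libraries did not overlap between the groups in 1509 rows (20.1%), 10.2% higher and 9.82% lower. These comprised 648 higher (16.0%) and 214 lower (5.27%) rows with a shared exon, and 75 higher (2.78%) and 421 lower (15.6%) rows with no opposite gene. Relative to the mean of the high-fat diet libraries, rows with no opposite gene lay at a median of 0.01 in carnitine 1, −0.45 in carnitine 2 and −0.44 in carnitine 3. Rows with a shared exon were at 0.05, 0.25 and 0.24. Without carnitine 1 the medians of log2 fold changes were −0.57 and 0.26.

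**Figure D2:**
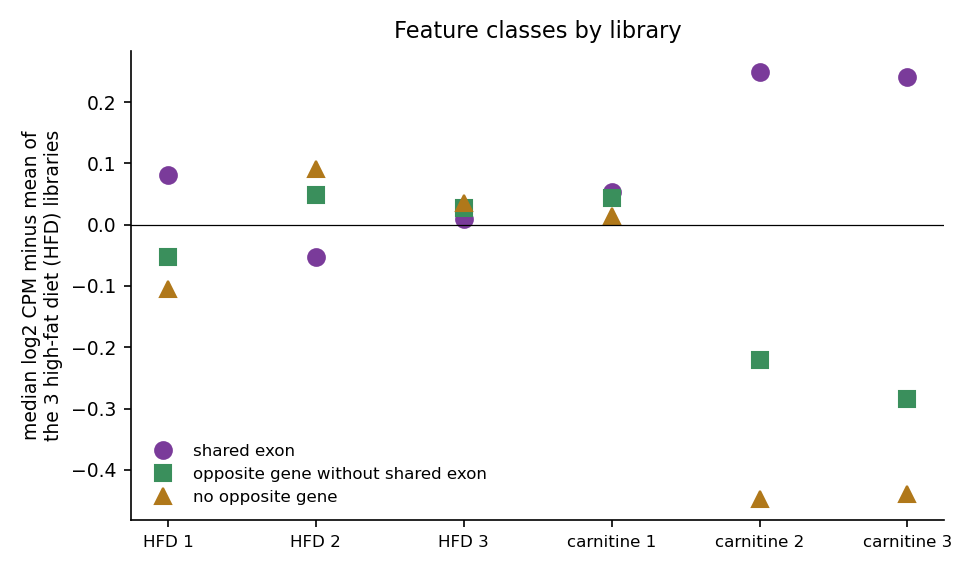
Median over tested rows of log2 CPM minus the mean of the 3 high-fat diet (HFD) libraries, for each library and class of rows (circles shared exon, squares opposite gene without shared exon, triangles no opposite gene). Carnitine 1 lies with the high-fat diet libraries near 0, while in carnitine 2 and 3 rows with a shared exon lie at 0.25 and 0.24 and rows with no opposite gene at −0.45 and −0.44.

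Within pairs the 2 strands often went apart. In 808 pairs of tested rows that share exon sequence, one row held at least 5 times the counts of the other, summed over the 6 libraries. The larger rows had a median log2 fold change of 0.26 and the smaller rows of −0.15. In 385 of these pairs (47.6%) the larger row was above 0 and the smaller below 0, and the reverse held in 40. The smaller row held a median of 6.35%, 8.57% and 7.58% of the counts of the larger among high-fat diet libraries 1, 2 and 3, but 8.33%, 4.56% and 4.44% in carnitine 1, 2 and 3. The part of counting, library preparation or the animals in this was not tested.

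Tested rows of the carnitine list were all below 0. Of 16 genes listed under carnitine transport and acyl transfer in the file 5 were tested, and none passed. These were Crat, Slc25a20 and Cpt2, and also Mlycd and Acacb, whose enzymes break down and make malonyl-CoA and do not handle carnitine. Their median was −0.75, against −0.01 over all tested rows and −0.32 over rows with no opposite gene. For the same 5 rows it was −0.34 without high-fat diet 2, −0.40 without carnitine 2, −0.95 without carnitine 1 and −0.41 with each class scaled by itself. With the share of counts on features with no opposite gene as a covariate it was −0.22. Of the 7 strand-summed loci tested, 6 were below 0 and 1 above (median −0.34). Crat, carnitine acetyltransferase, opposite Gm16323 and Dolpp1, was at 89.4, 95.1 and 77.2 CPM on the high-fat diet and at 56.9, 39.0 and 51.0 CPM with carnitine, without overlap. Its log2 fold change was −0.83 (SE 0.29, edgeR adjusted p = 0.266). Of the rows opposite it, Gm16323 was at 396, 316 and 283 CPM against 199, 385 and 351 CPM, with overlap. Dolpp1 was at 82.6, 70.5 and 72.8 CPM against 95.2, 98.5 and 113 CPM, higher in all 3 carnitine libraries (0.44, SE 0.24, edgeR adjusted p = 0.477), and the strand-summed locus was at −0.11 (adjusted p = 0.880). The translocase gene Slc25a20 was at −0.76 (SE 0.58), Cpt2, the inner membrane palmitoyltransferase, at −0.75 (SE 0.60), malonyl-CoA decarboxylase (Mlycd) at −0.49 (SE 0.33) and the acetyl-CoA carboxylase gene Acacb at −0.34 (SE 0.31). In all 4 the libraries of the groups overlapped, and carnitine 1 was the highest of all 6 libraries for Acacb (115 CPM, against 48.8 and 44.2 CPM in carnitine 2 and 3). The cell surface carnitine transporter gene Slc22a5 averaged 0.793 ± 0.118 and 0.143 ± 0.247 CPM (SD, n = 3 each), and the muscle palmitoyltransferase gene Cpt1b 1.20 ± 0.42 and 1.03 ± 1.43 CPM. Both are at the level of a few counts, so a difference was not detectable at this depth.

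Genes of mitochondrial fatty acid oxidation lay mostly below 0. Of 26 tested, 17 were below 0 and 9 above (median −0.20), and none passed. The 14 with no opposite gene centred on −0.16, above the −0.32 of that class. The 10 with a shared exon centred on −0.31, below the 0.18 of theirs. That class holds larger and smaller rows of pairs together, and the smaller rows of pairs at least 5-fold apart centred on −0.15. With each class scaled by itself the median of the list turned to 0.06. Without carnitine 1, 24 of the 26 were below 0 (median −0.51). Acsl5, an acyl-CoA synthetase gene opposite Zdhhc6, was at 2.84, 2.09 and 0.371 CPM against 7.58, 9.42 and 5.29 CPM (log2 fold change 2.03, SE 0.72, edgeR adjusted p = 0.271). The thioesterase gene Acot2 was at 23.4, 32.5 and 14.9 CPM against 15.2, 3.85 and 8.17 CPM (−1.37, SE 0.63, adjusted p = 0.394). Of 20 PPAR target genes, which include Pdk4 and Acot2, 17 were below 0 (median −0.49), and by library their median was 0.14 in carnitine 1, −0.78 in carnitine 2 and −0.78 in carnitine 3. Of 16 lipid droplet and lipase genes 12 were below 0 (median −0.25). Lpin1, a phosphatidate phosphatase, was at 81.6, 70.8 and 109 CPM against 50.4, 44.5 and 34.6 CPM, without overlap (−1.01, SE 0.30, adjusted p = 0.226).

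The respiratory chain differed by strand. Of 42 tested genes of complexes II to V, 36 rows under the genes' own names were below 0 (median −0.43) and none passed. The 12 tested rows that share exon sequence with these genes on the other strand were all above 0, with a median of 0.43. The median was 0.18 over all rows with a shared exon and 0.26 over the larger rows of pairs at least 5-fold apart. In 9 of the 12 every carnitine library was above every high-fat diet library, against 16.0% of rows with a shared exon. None of the 12 passed. Gm26631, opposite the cytochrome oxidase gene Cox5a, was at 2645, 2391 and 2279 CPM on the high-fat diet and at 4091, 3113 and 3421 CPM with carnitine (log2 fold change 0.54, SE 0.24, edgeR adjusted p = 0.373). The row of Cox5a itself averaged 54.1 ± 18.2 and 36.9 ± 7.45 CPM (SD, n = 3 each).

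Pdzd9, opposite the complex III core gene Uqcrc2, was at 870, 645 and 827 CPM against 1260, 1183 and 1269 CPM (0.66, SE 0.24). Cbarp, opposite the ATP synthase gene Atp5d, was at 111, 101.2 and 124 CPM against 179, 193 and 170 CPM (0.69, SE 0.24). Gm30934, opposite Atp5l, was at 1607, 1550 and 1469 CPM against 2078, 1908 and 2081 CPM (0.39, SE 0.23). The median of the 12 rows was 0.53, 0.37 and 0.45 above the high-fat diet mean in carnitine 1, 2 and 3, though single rows varied, as Itgad did at 0.82, −0.59 and 0.48. The median was highest in carnitine 1 although there the median over all rows with a shared exon was 0.05. The 12 rows remained above 0 with library totals alone (median 0.25), with each class scaled by itself (0.27) and in each fit without a high-fat diet or carnitine library (0.37 to 0.54).

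Control libraries overlapped both groups in these 4 rows, for example 1696, 3377 and 2463 CPM for Gm26631. Rows of the genes' own names behaved otherwise, with medians of 0.08, −0.84 and −0.76 in carnitine 1, 2 and 3. Complex I had 28 of 38 own rows below 0 (median −0.33) and 12 of 14 opposite rows above 0 (median 0.24, and 0.08 with each class scaled by itself). Ndufa7 (−1.17) and Ndufa6 (−0.99), both with no opposite gene, and Uqcr10 (−0.99) and Uqcrh (−0.99) each had an adjusted p of 0.226 or 0.228 by edgeR. Of 32 genes of pyruvate dehydrogenase and the tricarboxylic acid cycle 29 were below 0 (median −0.43). Ogdh, the oxoglutarate dehydrogenase subunit, was at 89.7, 127 and 100.3 CPM against 69.4, 40.7 and 48.6 CPM (−0.999, SE 0.28, adjusted p = 0.200). Without carnitine 1 Ogdh fell (−1.24, edgeR adjusted p = 0.0255), as did Pdk4, Sdhb and Got1 of this list. Of the complexes II to V, 3 then fell (Sdhb, Uqcrq and Atp5l), beside 0.692% of all rows, and Ndufa6 of complex I was at −1.44 (edgeR adjusted p = 0.0226). Oxidative fibre genes also varied between the libraries: Gm49540, opposite the myoglobin gene Mb, was at 25005, 27889 and 17293 CPM on the high-fat diet and at 42994, 18264 and 29997 CPM with carnitine, highest in carnitine 1. Their part in the values of the respiratory chain was not tested.

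**Figure D3:**
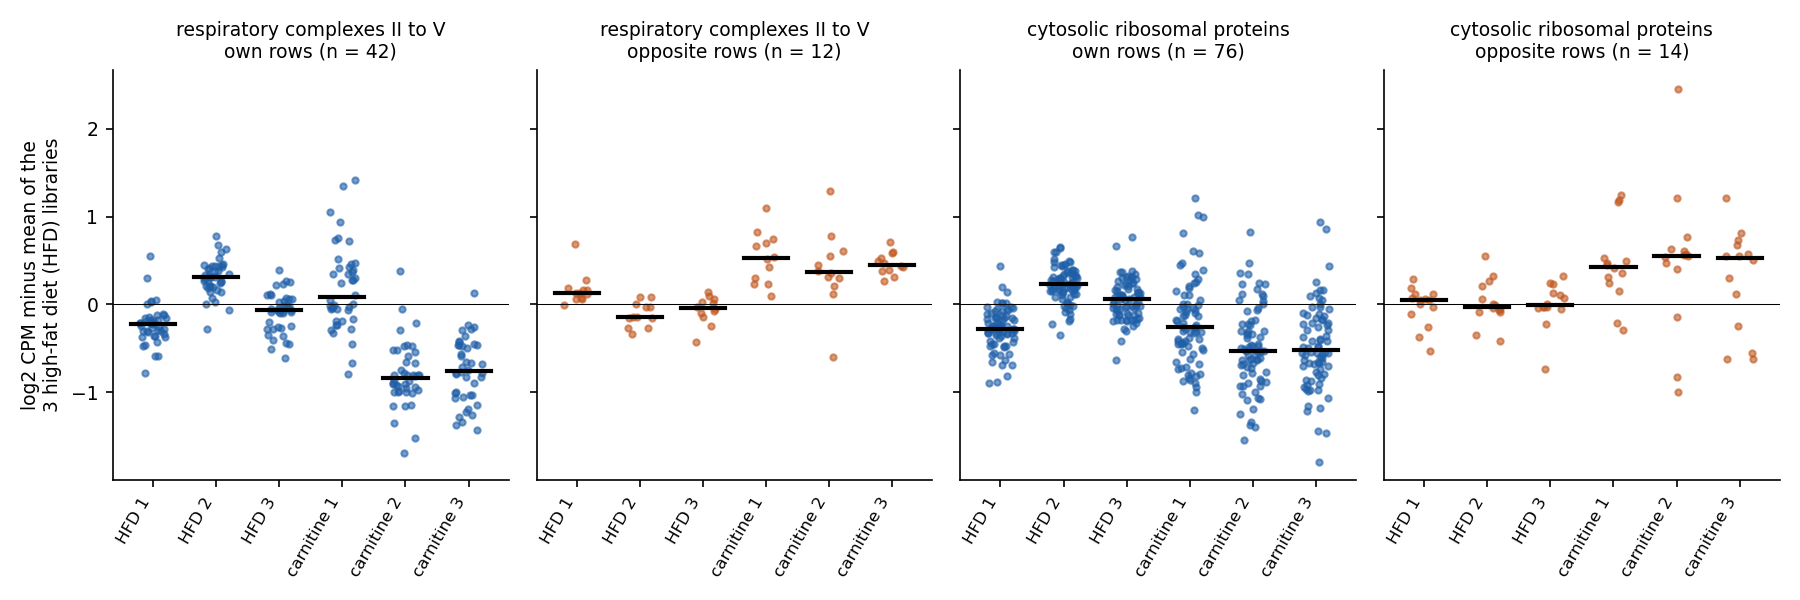
Log2 CPM of each tested row minus the mean of the 3 high-fat diet (HFD) libraries, by library, for the own rows of 2 gene lists (blue) and for the rows that share exon sequence with them on the other strand (orange); bars are medians. For complexes II to V the own rows have medians of −0.84 and −0.76 in carnitine 2 and 3 but 0.08 in carnitine 1, whereas the opposite rows lie at 0.53, 0.37 and 0.45 in carnitine 1, 2 and 3.

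Ribosomal protein genes also had own rows mostly below 0 and opposite rows mostly above 0. Of 76 tested own rows of cytosolic ribosomal proteins 66 were below 0 (median −0.49, and −0.18 with each class scaled by itself), and none passed. Of the 14 rows opposite them 11 were above 0, beside 63.5% of all rows with a shared exon. The median of the 14 was 0.49, beside 0.26 over the larger rows of pairs at least 5-fold apart. In 9 of the 14 every carnitine library was higher, beside 16.0% of all rows with a shared exon. Besides Sphk2, they included Wdr38, opposite Rpl35 (log2 fold change 0.47), Tlcd1, opposite Rpl23a (0.51), and D730044K07Rik, opposite Rpl30 (0.52). By library the median of the 14 rows was 0.43, 0.55 and 0.53 in carnitine 1, 2 and 3. Rps28, opposite Kank3, was the leading own row above 0, at 80.9, 97.0 and 109 CPM against 222, 170 and 184 CPM (1.01, SE 0.25, adjusted p = 0.168). Rpl34, with no opposite gene, was at 9.22, 10.9 and 14.1 CPM against 3.79, 2.57 and 2.88 CPM (−1.86, SE 0.57, adjusted p = 0.226).

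Genes of the Z-disc and of the response to mechanical load were lower almost throughout. Of 44 tested members 42 were below 0 (median −0.67). In 18 (40.9%) every carnitine library was below every high-fat diet library, beside 9.82% of all rows and 15.6% of those with no opposite gene. One member, Flnc, fell, beside 0.0133% of all rows. Among the 31 members with no opposite gene the median was −0.79, beside −0.32 for all such rows, and 27 of the 31 lay below that class median. With each class scaled by itself 39 of 44 remained below 0 (median −0.52). With the share of counts on features with no opposite gene as a covariate the median was −0.42. Of 44 strand-summed loci 40 were below 0 (median −0.62). For the 31 members with no opposite gene the sum is the row itself, so it is no further check on them. By library the median was −0.30, −0.77 and −0.77 in carnitine 1, 2 and 3, and −0.33, −0.55 and −0.53 after the median of each row's own class was taken off.

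Xirp1, an actin-binding repeat protein gene of injured and loaded muscle, was at 100.4, 57.3 and 26.0 CPM on the high-fat diet and at 20.5, 18.4 and 21.6 CPM with carnitine (log2 fold change −1.60, SE 0.36, edgeR adjusted p = 0.0856). The carnitine libraries were alike and the high-fat diet libraries widely spread. Bag3, a cochaperone that clears damaged filamin, was at 62.1, 44.8 and 55.0 CPM against 28.4, 20.98 and 21.2 CPM (−1.19, SE 0.31, adjusted p = 0.178). The small heat shock protein gene Hspb7 was at 124, 175 and 70.6 CPM against 66.4, 46.7 and 44.7 CPM (−1.23, SE 0.39). Ldb3 averaged 270 ± 30.5 and 144 ± 15.03 CPM (SD, n = 3 each; −0.91, SE 0.26), Actn2 348 ± 132 and 169 ± 57.0 CPM (−1.04, SE 0.29), and Smtnl2 50.1 ± 19.97 and 19.3 ± 5.87 CPM (−1.37, SE 0.34). The members above 0 were Cryab (0.18) and Stub1 (0.15), both of which share exon sequence with an opposite gene. Without carnitine 1, 7 members passed and were lower, namely Flnc, Bag3, Actn2, Hspb6, Xirp1, Smtnl2 and Hspa8, and none rose (28 rises and 56 falls among all 8087 rows).

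**Figure D4:**
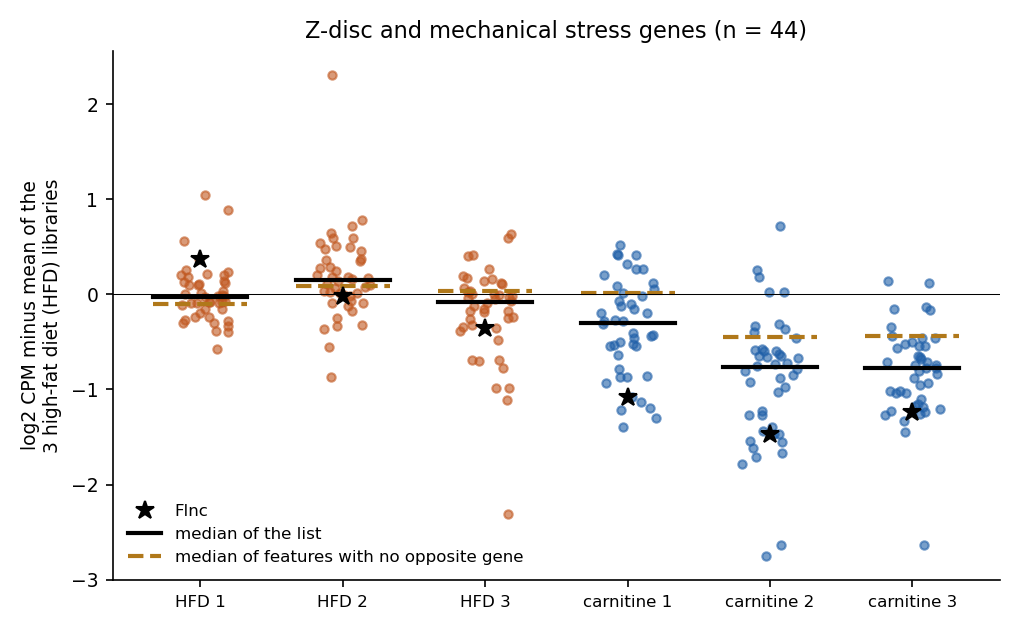
Log2 CPM of each tested gene of the Z-disc and mechanical stress list minus the mean of the 3 high-fat diet (HFD) libraries, by library, with the list median (black bar), the median of all features with no opposite gene (dashed bar) and Flnc (star). The list median lies below the dashed bar in all 3 carnitine libraries, at −0.30 against 0.01 in carnitine 1, −0.77 against −0.45 in carnitine 2 and −0.77 against −0.44 in carnitine 3.

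Fast fibre contractile genes showed both strands at high counts. All 21 tested own rows were below 0 (median −0.57), 13 (61.9%) without overlap between the groups. Lower in this way were 9.82% of all rows and 15.6% of those with no opposite gene. The 7 opposite rows were all above 0 (median 0.36), and none of either kind passed. Myh4, the fast myosin heavy chain with no opposite gene, was at 24812, 21889 and 35366 CPM on the high-fat diet and at 14335, 19489 and 21109 CPM with carnitine (log2 fold change −0.58, SE 0.25, edgeR adjusted p = 0.347). With each class scaled by itself the fast fibre median was −0.28, 4 of the 21 were above 0, and Myh4 was at −0.17. With the share of counts on features with no opposite gene as a covariate the fast fibre median was −0.31. Tpm1, a tropomyosin gene, was at 4546, 3855 and 5793 CPM against 2862, 2560 and 3229 CPM (−0.71, SE 0.25). For muscle creatine kinase the own row Ckm was at 4630, 5703 and 6068 CPM against 3414, 3312 and 3861 CPM (−0.63), and the opposite row A930016O22Rik at 112998, 105065 and 118998 CPM against 121253, 158198 and 153555 CPM (0.36, adjusted p = 0.494). The 2 strands of this locus were thus apart in opposite directions in all 3 carnitine libraries, and their sum was at 0.32 (adjusted p = 0.525).

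Rabep2, the row with the most counts, opposite the fast calcium pump gene Atp2a1, was at 150280, 142268 and 153589 CPM against 118977, 225143 and 189276 CPM (0.26, SE 0.22). Here carnitine 1 was below all high-fat diet libraries and carnitine 2 and 3 above them. Ube2c, opposite the fast troponin gene Tnnc2, was at 0.44 and did not overlap, and Tlcd3b, opposite Aldoa, and Gm49540, opposite Mb, were at 0.12 and 0.38. Slow fibre genes had 7 of 12 below 0 (median −0.58), with Tnnt1 at 0, 5.34 and 0.743 CPM against 12.1, 8.99 and 2.404 CPM and the titin-binding stress gene Ankrd2 at 121, 119 and 36.4 CPM against 66.0, 10.3 and 28.4 CPM. Of 29 calcium handling genes 24 were below 0 (median −0.53), led by the kinase gene Camk2b (−1.36, SE 0.35, adjusted p = 0.178; −1.47 without carnitine 1, edgeR adjusted p = 0.0487) and the aspartyl hydroxylase gene Asph, opposite Clvs1 (−1.02, SE 0.30, adjusted p = 0.226).

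Rows of protein turnover lists lay mostly below 0. Of 42 genes of the proteasome and the ubiquitin ligases of atrophy, 37 were below 0 (median −0.49, and −0.35 with each class scaled by itself). In 17 (40.5%) every carnitine library was below every high-fat diet library, beside 9.82% of all rows and 15.6% of those with no opposite gene. Psmd4, a ubiquitin receptor of the proteasome, was at 51.4, 60.6 and 59.0 CPM on the high-fat diet and at 32.99, 20.98 and 23.1 CPM with carnitine (log2 fold change −1.15, SE 0.31, edgeR adjusted p = 0.199). Fbxo40, a muscle ubiquitin ligase gene, was at 41.1, 48.7 and 49.0 CPM against 29.6, 14.1 and 12.5 CPM (−1.29, SE 0.35, adjusted p = 0.199). Both fell in the fit without carnitine 1, Psmd4 at −1.36 (edgeR adjusted p = 0.029) and Fbxo40 at −1.79 (0.0108). Trim63, which encodes MuRF1, was at 332, 245 and 630 CPM against 322, 167 and 201 CPM, with overlap (−0.80, SE 0.30). Of 30 antioxidant genes 25 were below 0 (median −0.65), among them Nfe2l2, the master regulator of the group (−1.44, SE 0.58, adjusted p = 0.325), while Gss was above 0. Of 29 autophagy genes 21 were below 0 (median −0.50). Heat shock and cochaperone genes were no lower than rows with no opposite gene as a whole (median −0.31, 22 of 28 below 0, against −0.32), and with each class scaled by itself their median was −0.08, with 11 above 0. Lamp1, opposite Grtp1, was at −0.93 and Optn, opposite 4930551O13Rik, at −1.24, but both strands of these loci together were at 0.23 and −0.22. None of these lists held a called row with all libraries.

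Rows of glucose metabolism and insulin signalling lay mostly below 0. Of 20 glycolytic genes 17 (median −0.44), of 17 glycogen genes 14 (median −0.34) and of 23 insulin signalling genes 18 (median −0.49) were below 0, and none passed. With each class scaled by itself these medians were −0.22, −0.24 and −0.38. Eno3, the muscle enolase, was at 830, 1009 and 979 CPM against 844, 481 and 552 CPM, with carnitine 1 inside the high-fat diet range (−0.59, SE 0.24). Tbc1d1, which restrains GLUT4 traffic until it is phosphorylated, was at 37.9, 39.7 and 16.7 CPM against 10.2, 7.28 and 12.5 CPM (−1.66, SE 0.40, edgeR adjusted p = 0.136). All 3 carnitine libraries lay below every high-fat diet library for Tbc1d1. Without carnitine 1, 4 genes of the insulin list fell (Tbc1d1, Slc2a4, Mtor and Sesn1) and 2 of the glycogen list (Gys1 and Ppp1r3c), beside 0.692% of all rows. In carnitine 2 and 3 Mtor was at 0.857 and 0.962 CPM and Sesn1 at 0.428 and 0 CPM, a level of few counts. Sesn1 was at 13.3 CPM in carnitine 1, above every high-fat diet library, and at −0.78 with all libraries (edgeR adjusted p = 0.771). Without carnitine 1 the medians of the 3 lists were −0.68, −0.77 and −0.77.

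The called rows opposite Cish stood apart from the own rows of the STAT5 and growth hormone list, to which Cish belongs. Of 15 tested members 11 were below 0 (median −0.36) and none passed, and of 8 opposite rows 4 were above 0, of which 2, Gm17041 and Gm17040, rose. Stat5b was at 46.8, 44.3 and 74.6 CPM on the high-fat diet and at 27.3, 25.7 and 24.5 CPM with carnitine (log2 fold change −1.09, SE 0.33, edgeR adjusted p = 0.226), and Jak1, opposite Raver2, was at −1.02 (SE 0.45). Of 16 clock genes 10 own rows were below 0 (median −0.36), whereas 7 of the 10 opposite rows, which include Sphk2, were above 0 (median 0.31). Nfil3, a repressor that competes with Dbp for its binding sites, was at 9.22, 9.05 and 7.06 CPM against 2.28, 2.14 and 3.37 CPM, without overlap (−1.70, SE 0.58, adjusted p = 0.266). Bhlhe40, opposite 0610040F04Rik, was at 1.42, 3.02 and 0.743 CPM against 4.93, 9.85 and 6.73 CPM (1.97, SE 0.83).

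Immediate early genes were the pathway list with the largest share of members above 0, 9 of 12 (median 0.28, and 0.09 with library totals alone), and none passed. Fosl1, opposite Ccdc85b, was at 17.0, 15.5 and 7.80 CPM against 18.2, 51.8 and 38.5 CPM (1.41, SE 0.44, adjusted p = 0.226; 1.74 without carnitine 1, edgeR adjusted p = 0.0292), and Jun, opposite Junos, at −0.75 (SE 0.34). Of 21 glucocorticoid response genes 17 were below 0 (median −0.53), but without high-fat diet 3 the median was −0.12 and 8 of the 21 were above 0. Among them was Errfi1, a feedback inhibitor of the EGF receptor, at 131, 158 and 232 CPM against 232, 297 and 298 CPM (0.67, SE 0.25, adjusted p = 0.293).

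**Figure D5:**
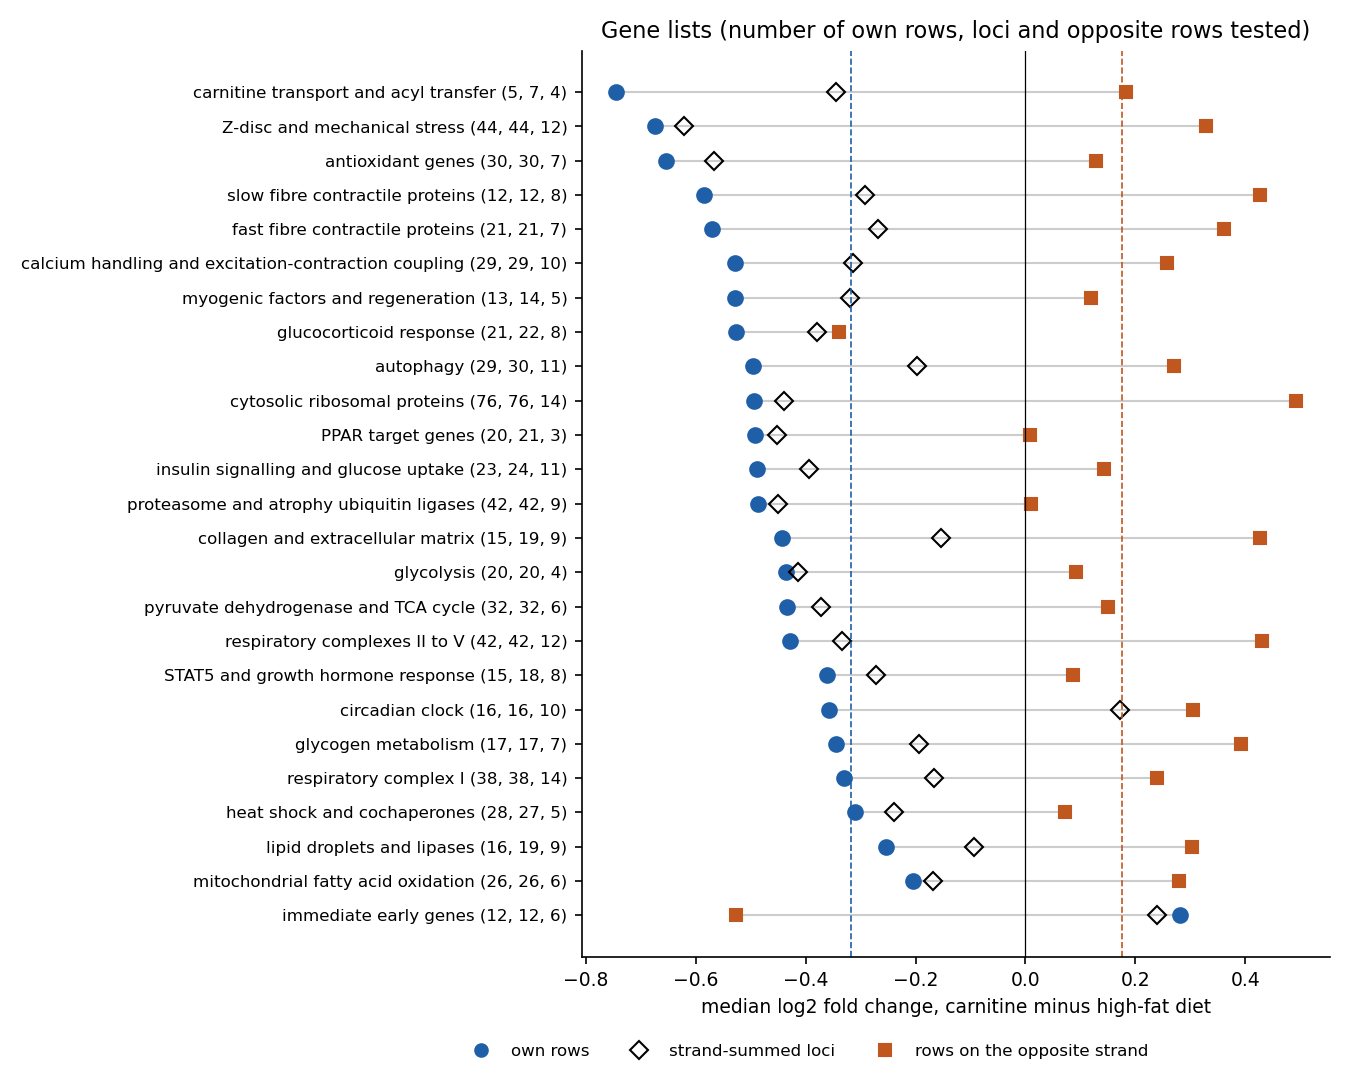
Median log2 fold change, carnitine minus high-fat diet, of each gene list for the rows under the genes' own names (blue circles), strand-summed loci (open diamonds) and the rows that share exon sequence on the other strand (orange squares); numbers in brackets are tested own rows, loci and opposite rows. Dashed lines mark the medians of all rows with no opposite gene (−0.32, blue) and with a shared exon (0.18, orange); own rows lie below 0 in each of these pathway lists but immediate early genes. Opposite rows, without those that are members of the same list, lie above 0 in each but glucocorticoid response and immediate early genes.

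Skeletal muscle markers made up the bulk of the marker counts in every library. The 19 skeletal muscle marker rows summed to 68458, 73477 and 84698 CPM on the high-fat diet and to 57042, 49144 and 53814 CPM with carnitine. Summed with their opposite strands they reached 470469, 446522 and 474609 CPM against 474294, 582678 and 561848 CPM. Endothelial markers were highest in carnitine 1, at 246 CPM for 12 genes, against 63.4 and 59.6 CPM in carnitine 2 and 3 and 87.6, 139 and 82.8 CPM on the high-fat diet. Their median log2 fold change was 0.39 with carnitine 1 and −0.80 without it (11 genes tested). Smooth muscle markers followed them, at 196 CPM in carnitine 1 against 97.2 and 94.2 CPM in carnitine 2 and 3. On the high-fat diet these own rows were at 108, 161 and 123 CPM. Summed with their opposite strands, smooth muscle markers reached 1565, 1325 and 1383 CPM with carnitine against 1230, 1126 and 1157 CPM, without overlap. For fat cells, Adipoq held at most 2 counts in a library and Retn at most 1, and the list of 8 genes, which muscle shares through Fabp4 and Car3, summed to 208 to 297 CPM on the high-fat diet and 152 to 252 CPM with carnitine. Macrophage markers summed to 104 to 144 CPM and 143 to 174 CPM, nearly all from Csf1r, opposite Hmgxb3, and Cd163. The other members were near the floor in both groups. Ptprc, Mrc1 and Cd14 held at most 2 counts in a high-fat diet library and 0 with carnitine. Lyz2 held 2, 0 and 0 counts on the high-fat diet against 1, 4 and 8 with carnitine. Fibroblast markers summed to 34.2 to 127 CPM and 44.2 to 80.0 CPM, nerve markers to 4.46 to 28.8 CPM and 2.404 to 18.6 CPM, and blood markers to 4.96 to 7.66 CPM and 3.85 to 19.3 CPM. The 9 satellite cell markers, mostly desmin (Des), which muscle fibres share, summed to 923, 1061 and 989 CPM on the high-fat diet and to 853, 626 and 709.6 CPM with carnitine, without overlap. The 3 of them that were tested were all below 0 (median −1.38). Cdh15, a cadherin of these cells, held 10, 17 and 27 counts on the high-fat diet and 4, 0 and 0 with carnitine, where 0 allows up to 3 counts (edgeR adjusted p = 0.226, and 0.0337 without carnitine 1). Pax7 held at most 6 counts in a library. The part of these cells in the differences above was not tested.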

How the data were processed

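Per the labels' protocols, libraries of mouse muscle RNA were made with a kit for mRNA that keeps the strand. The authors deposited raw counts per gene for 9 libraries, together with FPKM values that are those counts scaled by gene length and library; only the counts were tested. Per the submitters' processing notes, which give no roles, the tools were HISAT2 2.2.0, HTSeq 0.13.5, Trim Galore 0.6.4, edgeR and Bowtie2 2.4.2, and GRCm39 is one of several builds listed. Whether HTSeq counted by strand is not given in the sources here.

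Counts were fitted with edgeR 4.0.16 (R 4.3.3; TMM normalisation, filterByExpr, quasi-likelihood test, Benjamini-Hochberg adjustment over all tested rows) on all 9 libraries, with limma 3.58.1 and DESeq2 1.42.0 as alternatives. Of the 19335 features, 19045 were found by gene in GENCODE M21, which is of another build and was used only to tell which genes share exon sequence across strands; 119 features were left without a class. Counts of rows sharing exon sequence were also summed into 15809 loci. On simulated counts the fit of 7523 rows recovered 79 of 100 rows changed 4-fold and 23 of 100 changed 2-fold, with 4 false calls. The changed rows were drawn only from those with higher mean counts, so recovery at few counts was not measured. The simulated spread followed the trend over all rows, without a shift between classes or a library that stood apart, which favours recovery. Named rows include the called ones. Others are the 6 higher and 6 lower by p in each of 2 classes without overlap at a mean of at least 5 CPM. Also named are up to 2 members of each list, every tested gene of the carnitine list, the 6 rows with most counts and their partners. Other list members were chosen after their values were seen. Members and lists were chosen with earlier results of these data known. Intervals and the limit of 3 counts cover counting error only.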

Additional observations from a re-analysis of the deposited data

How the results depend on the processing

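The count of called rows (4) and of called loci (1) depended on the method. DESeq2 called 42 rows and 33 loci, library totals without normalisation factors 10 and 10, no filter 26 and 28, and a CPM filter 10 and 18, while limma-voom called 2 loci. A fit of only the 6 libraries called 0 rows and 0 loci (889 rows at an unadjusted p below 0.05), and so did a fit with the share of counts on features with no opposite gene as a covariate (460 rows). Each class scaled by itself gave 0 rows (743 at an unadjusted p below 0.05). Leaving out a library gave 1 to 84 rows and 0 to 74 loci, the most without carnitine 1; without high-fat diet 1 or carnitine 2 the count was 1 row, and without high-fat diet 3 it was 9. The cause was not tested.

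Samples with the same number did not deviate together: between high-fat diet and carnitine, the correlations of deviations were −0.192, −0.08 and 0.04. In the fit that took replicate numbers as a block, 3 rows and 2 loci were called, and Flnc had an edgeR adjusted p of 0.063.

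The class medians moved too. For rows with no opposite gene (−0.32) the median was −0.10 with the covariate, 0.010 with each class scaled by itself and −0.57 to −0.23 with a library left out. For rows whose opposite gene shares no exon (−0.15) it was −0.34 without normalisation factors, 0 without a filter, −0.021 with the covariate, 0.042 with each class scaled by itself and −0.35 to −0.078 with a library left out. For rows with a shared exon (0.18) it was −0.025 without normalisation factors, 0.052 with the covariate and −0.016 with each class scaled by itself. The median of all tested rows was −0.20 without normalisation factors. Medians of the 25 lists moved by more than the spread between libraries in 48 cases, 14 with the covariate and 12 without carnitine 1, and otherwise did not (427). Without carnitine 1 glycogen went from −0.34 to −0.77, proteasome from −0.49 to −0.79, PPAR targets from −0.49 to −0.92 and complexes II to V from −0.43 to −0.87. With the covariate glycogen was at 0.0017, glucocorticoid response at −0.029 and autophagy at −0.047.

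Values near 0 changed sign. With the covariate Acacb was at 0.13, Rabep2 at −0.056 and Tlcd3b at −0.10. Without normalisation factors Rpl18 was at −0.12 and Tlcd3b at −0.085, and with each class scaled by itself they were at −0.10 and −0.074. With a library left out, Rpl18 ranged from −0.015 to 0.17 and Tlcd3b from −0.039 to 0.30. Of the other values of named rows under an alternative, 1383 kept their direction and side of the threshold, 67 came to pass it and 22 no longer passed. With 3 libraries a group and at most 3773649 counts, 2-fold changes were seldom recovered on simulated counts.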
